A study of Rattus norvegicus with 9 samples.

Results

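The 10 immediate early genes Fos, Fosb, Jun, Junb, Egr1, Atf3, Ier2, Ier3, Dusp1 and Nr4a1 were followed in rat kidneys on 9 Agilent arrays. Members were the gene probes whose gene name in the array files was that of 1 of these genes. This gave 11 of the 30367 gene probes, since Egr1 had 2 probes, and 10 of the 26115 gene names. All 11 probes were among the 15630 that passed the filter on low signals.

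Each array read the RNA of a kidney of the DCD model, in which the organ of a Fisher F344 rat is exposed to 20 min. of warm ischaemia before it is taken. The 5 NP arrays came from kidneys that were not perfused, and the 4 MSC arrays from kidneys perfused for 4 hrs at 4°C with Belzer solution (BS) that carried mesenchymal stromal cells (MSC) grown from the bone marrow of EGFP transgenic SD rats. Perfusion, the time and the cold that went with it, and MSC came together, so their parts in any difference cannot be told apart. The labels are divided on the NP kidneys, because the treatment field and the paper call them not perfused while titles and descriptions name a perfusion with BS. The methods describe the removal of the left kidney, and the sources used here do not say whether the donors shared a litter or a day, so the p-values measure only the spread between these samples, which may be technical.

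Immediate early genes are transcribed within minutes of a stimulus, from factors that are already present in the cell, and their mRNAs are short-lived. Many code for transcription factors: FOS and JUN proteins pair to form AP-1, and EGR1, ATF3 and NR4A1 bind DNA sites of their own. Others, such as Dusp1, a phosphatase of MAP kinases, feed back on the signal. In kidney they are known for a rapid rise after ischaemia.

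The probes of Fosb, Jun and Dusp1 that read coding sequence are shown because the 2 slides overlapped within a group for Fosb and Jun, as described further on, and not for Dusp1. Each is 60 bases long, from the array files. The Fosb probe lies at chr1:78668672-78668731 on the minus strand of rn4, the Jun probe at chr5:115359410-115359469 on the minus strand, and the Dusp1 probe is placed between chr10:16944342 and chr10:16944661 on the plus strand, a span longer than the probe.
Fosb: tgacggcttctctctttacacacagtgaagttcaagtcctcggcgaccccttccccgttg
Jun: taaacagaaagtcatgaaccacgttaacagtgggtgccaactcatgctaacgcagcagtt
Dusp1: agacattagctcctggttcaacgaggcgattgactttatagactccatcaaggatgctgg

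RefSeq promoters (GRCr8) were held for 6 of the 10 genes, Fosb, Junb, Egr1, Ier2, Dusp1 and Nr4a1. The 250 bases before the start site were searched on both strands for the cAMP response element TGACGTCA, its core TGACG, which the full element contains, and the CArG box bound by SRF. The full element was present in 1.59% of all 33469 promoters and in Ier2 and Dusp1. The CArG box was present in 1.5% of promoters and, among the 6, in Egr1, with 2 copies that begin 105 and 83 bases before the start. The core was present in 18.2% of promoters and in 5 of the 6, all but Fosb, with 4 copies in Nr4a1. A match of letters is a description and not a bound site. The promoters of Ier2 (GRCr8 chr19:40399123-40399372, plus strand), Dusp1 (chr10:17184603-17184852, plus strand) and Fosb (chr1:88089185-88089434, minus strand) are shown 5′ to 3′ as the pair with the full element and the one with neither it nor its core. Junb, Egr1 and Nr4a1 lack the full element and, like Ier2 and Dusp1, were brighter on slide 2 without overlap in both groups. Capitals mark the cAMP response element, which begins 66 bases before the start in Ier2 and 124 bases before it in Dusp1.
Ier2: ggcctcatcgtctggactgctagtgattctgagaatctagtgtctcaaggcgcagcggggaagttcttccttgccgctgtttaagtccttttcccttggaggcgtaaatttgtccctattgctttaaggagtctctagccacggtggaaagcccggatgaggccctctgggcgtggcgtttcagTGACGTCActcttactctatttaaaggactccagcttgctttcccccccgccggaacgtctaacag
Dusp1: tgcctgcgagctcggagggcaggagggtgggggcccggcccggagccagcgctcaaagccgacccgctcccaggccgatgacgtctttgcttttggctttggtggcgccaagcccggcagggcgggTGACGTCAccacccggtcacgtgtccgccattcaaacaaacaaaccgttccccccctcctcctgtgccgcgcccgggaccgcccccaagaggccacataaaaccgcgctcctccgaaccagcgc
Fosb: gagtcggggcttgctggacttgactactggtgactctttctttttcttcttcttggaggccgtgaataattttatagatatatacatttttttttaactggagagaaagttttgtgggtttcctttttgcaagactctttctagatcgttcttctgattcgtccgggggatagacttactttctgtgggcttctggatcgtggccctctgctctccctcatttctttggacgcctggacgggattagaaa

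The arrays lay on 2 slides, each scanned on its own, so slide and scan are the same split. Slide 1 held NP replicates 1, 2 and 3 and MSC replicates 1 and 2, and slide 2 held NP replicates 4 and 5 and MSC replicates 3 and 4. Between 65.6% and 74.3% of gene spots were well above background on an array. The 11 probes had 53 spots, whose 477 readings over 9 arrays were all well above background, with 0 saturated and 3 left out for an outlier flag. The 8 kidney markers were all past the filter. Fat markers (4 of 6 past the filter, without Plin1 and Lep) had a summed intensity of 37415 on MSC replicate 3 and 20455 on MSC replicate 4, against 4815 to 9507 on the other arrays. Red cell markers (2 of 3 on the arrays, both past the filter) summed to 26196 on MSC replicate 1 and 94430 on MSC replicate 3, against 186613 to 253930 on the others. The part of fat and blood in the results was not tested. Since these are whole pieces of tissue, fewer cells of a type and less RNA per cell cannot be told apart.

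The first question was whether MSC-perfused kidneys differed from NP kidneys in these genes. None of the 11 probes was called in limma, where a call needed a fold change above 1.5 as well as an FDR below 0.05, and neither was any of the 15630 probes (0%). The paper, which collapsed probes to genes, reported Tmem52b and Calb1 as up in MSC at these thresholds, and those calls were not reproduced here. The mean of the MSC arrays was above that of the NP arrays for 8 probes, of which Fos differed most, and below it for Fosb, Jun and Ier3. At an unadjusted p under 0.05, 1 of the 11 probes was higher in MSC, that of Fos, where 6.52% of all probes were, and 0 of 11 were lower, where 5.16% of all probes were. The median difference of the 11 probes was 0.57 on the log2 scale, against -0.0048 over all probes.

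Fos, the partner of JUN proteins in AP-1 and the member most used as a sign of recent stimulation, had log2 intensities of 10.98, 10.19, 9.94, 12.63 and 12.07 on NP replicates 1 to 5 and of 11.65, 12.43, 13.04 and 13.30 on MSC replicates 1 to 4. NP replicates 4 and 5 were within the range of the MSC arrays, so the groups overlapped. Within each slide, every MSC array was above every NP array, by a mean of 1.67 on slide 1 and 0.82 on slide 2. The MSC mean was 1.44 higher (SE 0.57), a fold change of 2.72, with FDR = 0.39 in limma and an unadjusted p under 0.05. With slide in the model the difference was 1.28 (SE 0.28), a fold change of 2.44, with FDR = 0.285.

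Fosb, another FOS family member, had log2 intensities of 10.11, 11.02, 10.53, 10.58 and 10.35 on the NP arrays and of 10.38, 10.67, 10.17 and 10.54 on the MSC arrays. The groups overlapped throughout, and the difference was -0.08 (SE 0.17). Jun, the AP-1 partner of the FOS proteins, had 14.37, 15.73, 15.60, 15.96 and 15.42 on the NP arrays and 14.40, 14.83, 15.30 and 15.60 on the MSC arrays. Jun was low on NP replicate 1 and MSC replicate 1, and the MSC mean was 0.39 lower (log2 difference -0.39, SE 0.33, limma FDR = 0.669). Jun was bright on NP replicates 2 and 3, the arrays on which Fos was lowest. Junb, which also pairs with FOS proteins, had 16.44, 15.87, 15.66, 17.08 and 16.93 on the NP arrays and 16.26, 16.67, 17.06 and 17.28 on the MSC arrays, from a single spot. Its groups overlapped and differed by 0.42 (SE 0.32).

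Egr1, a zinc finger factor induced through CArG boxes, was read by 2 probes whose starts lie 1115 bases apart in rn4, the first of which ends at the stop codon. The probe in the coding region had log2 intensities of 12.41, 11.22, 10.55, 13.38 and 13.07 on the NP arrays and of 11.68, 13.22, 13.62 and 14.16 on the MSC arrays. The probe nearer the 3′ end had 14.41, 12.89, 12.76, 15.25 and 14.98 on the NP arrays and 13.58, 15.04, 15.40 and 15.93 on the MSC arrays. Both probes put the arrays in the same order, with NP replicates 3 and 2 lowest and MSC replicate 4 highest. The MSC means were 1.04 (SE 0.65, limma FDR = 0.552) and 0.93 (SE 0.62, limma FDR = 0.576) higher, and the groups overlapped. The second value was 1.4 without MSC replicate 1, 0.62 without MSC replicate 4 and 0.61 without NP replicate 3.

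Atf3, a stress-induced factor of the ATF/CREB family, had log2 intensities of 15.34, 14.14, 13.57, 16.37 and 16.17 on the NP arrays and of 15.41, 15.98, 16.15 and 16.20 on the MSC arrays. Its MSC arrays lay close together while the NP arrays reached from the lowest value to the highest. The difference was 0.81 (SE 0.55, limma FDR = 0.575), with 1.34 on slide 1 and -0.10 on slide 2. The change in this difference between slides had an FDR of 0.9996 in limma, and the interaction passed the FDR for 0 of the 11 probes and 0 of all 15630.

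Nr4a1, an orphan nuclear receptor, had 14.33, 14.23, 13.63, 15.80 and 15.44 on the NP arrays and 14.75, 15.11, 16.04 and 16.09 on the MSC arrays. As for Fos, every MSC array was above every NP array of the same slide, although the groups overlapped over both slides. The difference was 0.81 (SE 0.46, limma FDR = 0.519), and with slide in the model 0.67 (SE 0.17, FDR = 0.285). Fos and Nr4a1 were the 2 of 11 probes with MSC above NP and no overlap within both slides, where 5.69% of all probes were, and the 2 of 11 with p under 0.05 upward in the model with slide, where 6.95% were.

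Ier2, a nuclear protein of the growth factor response, had log2 intensities of 15.33, 14.58, 14.16, 15.90 and 15.84 on the NP arrays and of 14.91, 15.63, 16.13 and 16.28 on the MSC arrays. MSC replicates 3 and 4 were above all NP arrays and MSC replicates 1 and 2 within their range, with a difference of 0.57 (SE 0.40). Ier3, which is linked to cell survival under stress, had 12.79, 12.65, 12.91, 13.44 and 13.50 on the NP arrays and 12.20, 12.77, 13.14 and 13.30 on the MSC arrays. It differed by -0.21 (SE 0.25, limma FDR = 0.773), and with slide in the model by -0.28 (SE 0.12, FDR = 0.391). This was the 1 of 11 probes with p under 0.05 downward in that model, where 5.71% of all probes were, and 0 of 11 were below NP without overlap within both slides, against 4.82% of all probes. Dusp1 had 10.94, 10.7, 10.57, 11.60 and 11.42 on the NP arrays and 10.69, 11.21, 11.79 and 11.76 on the MSC arrays, a difference of 0.32 (SE 0.28), with groups that overlapped.

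Leaving out single arrays gave differences for Fos from 1.14 without NP replicate 3 to 1.81 without NP replicate 4. NP replicates 2 and 3 were the dimmest arrays on most of these probes, so leaving them out had to lower MSC minus NP on those probes. Without both, Fos differed by 0.71, Nr4a1 by 0.31, Egr1 by 0.21 and 0.11, Ier2 by 0.046 and Atf3 by -0.028. The difference of Dusp1 also shrank, and that of Ier3 became more negative. With arrays weighted by their quality in limma, Fos differed by 0.70, Egr1 by 0.34 and 0.23, Nr4a1 by 0.22, Atf3 by 0.19 and Ier2 by 0.12.

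**Figure D1:**
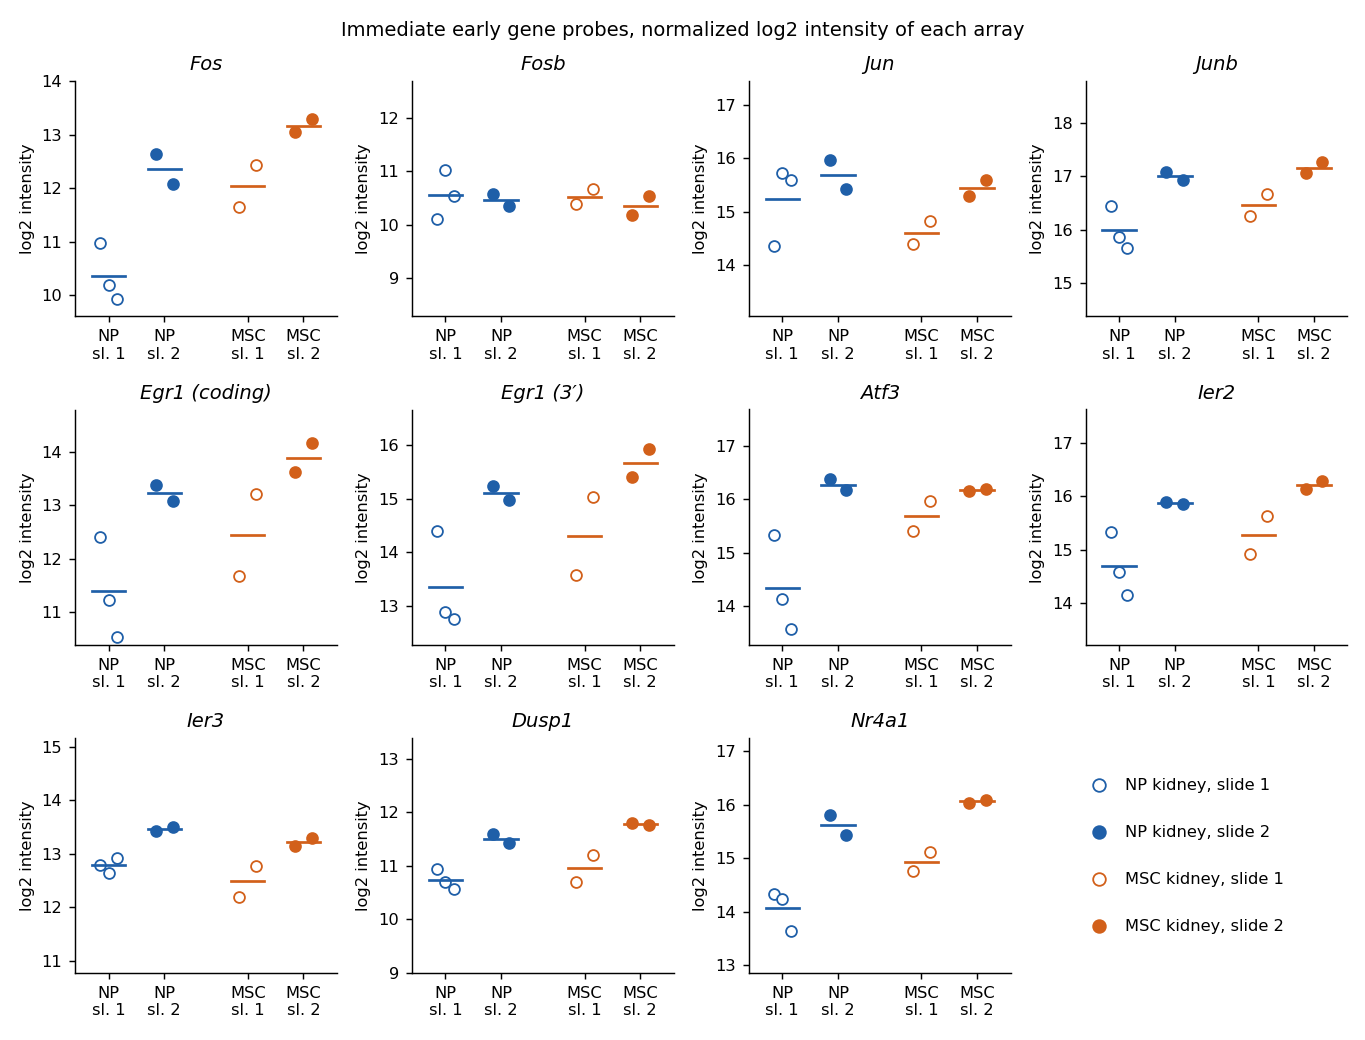
Normalized log2 intensity (vertical axes, all of the same height in log2 units) of the 11 probes on each array, with NP kidneys in blue and MSC kidneys in orange, slide 1 as open and slide 2 as filled points, and bars for the means. For Fos the open NP points sit between 9.94 and 10.98 and the filled ones at 12.07 and 12.63, and Fosb shows no such step.

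The split that the probes shared was that between slides. On 9 of the 11 probes, all but Fosb and Jun, every slide 2 array was above every slide 1 array of the same group, which held for 5.69% of all probes. For these 9 probes the higher values thus came from NP replicates 4 and 5 and MSC replicates 3 and 4 alike. NP replicate 4 and both slide 2 arrays of the MSC group were among the 4 brightest arrays on each of the 9 probes, and NP replicate 5 on 6 of them. NP replicates 2 and 3 were each among the 2 dimmest arrays on 8 of the 9. The median difference of slide 2 over slide 1, with group in the model, was 1.07 over the 11 probes and -0.0031 over all probes.

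Unadjusted p was under 0.05 in limma for 9 of 11 probes upward, where 7.12% of all probes were. Nr4a1 was 1.36 higher on slide 2 (SE 0.17), a fold change of 2.57, with FDR = 0.0485, and was the 1 of 11 probes called, against 0.0896% of all probes. That call was lost with all 9 arrays under 9 of the processing alternatives, with FDRs from 0.0511 with normexp to 0.159 with median scaling. Among these, no filter and the methods' filter read literally kept the same probes and were the same fit. The call was also lost when most single arrays were left out. Nr4a1 had an FDR of 0.0765 without NP replicate 3, 0.205 without NP replicate 4, 0.129 without NP replicate 5, and 0.142, 0.109, 0.181 and 0.0750 without MSC replicates 1 to 4. Without NP replicate 1, 7 of the 11 probes were called instead of 1, while calls over all 15630 probes rose from 14 to 117. The size of the Nr4a1 difference stayed between 1.23 and 1.47 when single arrays were left out.

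The coding probe of Egr1 had the largest difference between slides among the 11, 1.65 (SE 0.42), a fold change of 3.15, followed by Fos with 1.60 (SE 0.28, FDR = 0.0722) and the other Egr1 probe with 1.58 (SE 0.40), a fold change of 2.98. Atf3 was 1.27 higher (SE 0.40, FDR = 0.214). The differences of Ier2 and Junb were 1.07 (SE 0.24) and 0.87 (SE 0.17). Those of Dusp1 and Ier3 were smaller, 0.80 and 0.71, but had SEs of only 0.12 each and an FDR of 0.0578 for both. Jun was 0.63 higher (SE 0.29, FDR = 0.379) and Fosb -0.13 (SE 0.18, FDR = 0.841), so that neither passed the unadjusted threshold. The step was seen in each group by itself, for Fos 1.98 within NP and 1.13 within MSC, for Nr4a1 1.56 and 1.13, and for Dusp1 0.77 and 0.83. Atf3 had 1.92 within NP and 0.48 within MSC. What the kidneys of a slide shared other than slide and scan is not given in the sources used here.

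**Figure D2:**
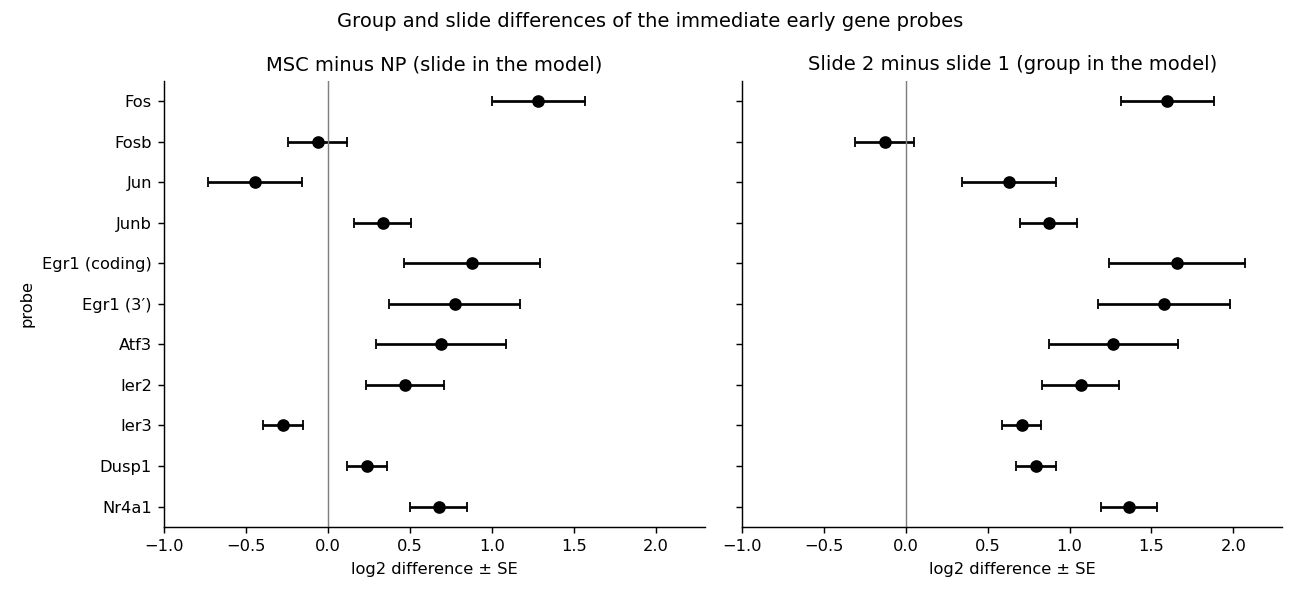
Differences in log2 intensity (horizontal axes, points with ± SE) of the 11 probes for MSC against NP with slide in the model (left) and slide 2 against slide 1 with group in the model (right). Between slides 10 of the 11 points lie right of 0, from 0.63 for Jun to 1.65 for Egr1, with Fosb at -0.13.

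The second question was how far the arrays of 1 group scattered. The SD within groups, pooled over NP and MSC, was above the 90th percentile of all probes for 10 of the 11, all but Fosb (80th percentile). Egr1 was the most variable, with pooled SDs of 1.15 and 1.1 log2 units, followed by Fos with 1.01, Atf3 with 0.96 and Nr4a1 with 0.81, where the median of all probes was 0.17. Between the lowest and the highest NP kidney, the intensity differed 7.12-fold for the Egr1 coding probe, 6.96-fold for Atf3, 6.50-fold for Fos and 4.5-fold for Nr4a1. Among MSC kidneys the same ranges were 5.58-fold, 1.73-fold, 3.14-fold and 2.52-fold. Repeat spots of a probe within an array, which leave out labelling, hybridization and slide, had a median SD of 0.028 for Atf3, 0.095 for Nr4a1, 0.105 for the Egr1 probe with 10 spots and 0.21 for Fos.

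With slide in the model, the residual SD of Nr4a1 was 0.29 and that of Fos 0.50, against 0.16 for the median probe. The residual SDs of Dusp1 (0.19) and Ier3 (0.19) were then near the middle of all probes, at percentiles 62.4 and 60.6. Those of Egr1 (0.73 and 0.71) and Atf3 (0.70) stayed above the 98th percentile. In all, 6 of the 11 probes remained above the 90th percentile, those of Fos, Jun, Egr1, Atf3 and Ier2.

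The NP arrays had the larger SD on 9 of 11 probes, but the same held for 73.4% of all probes, so the count is near the background. When distances from the group mean were compared in limma, NP was wider at p under 0.05 on 1 of 11 probes, where 5% of all probes were. This was Atf3, with SDs of 1.23 in NP (n = 5) and 0.36 in MSC (n = 4) and FDR = 0.629. None of the 11 passed an FDR under 0.05, against 0.0192% of all probes. Without NP replicate 1 Atf3 did pass, with an FDR of 0.0496, and the probes called among all 15630 went from 3 to 22. In simulated arrays a spread 16 times wider in NP was called for 0 of 200 probes at that FDR, so a probe that is not called may still differ in spread.

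**Figure D3:**
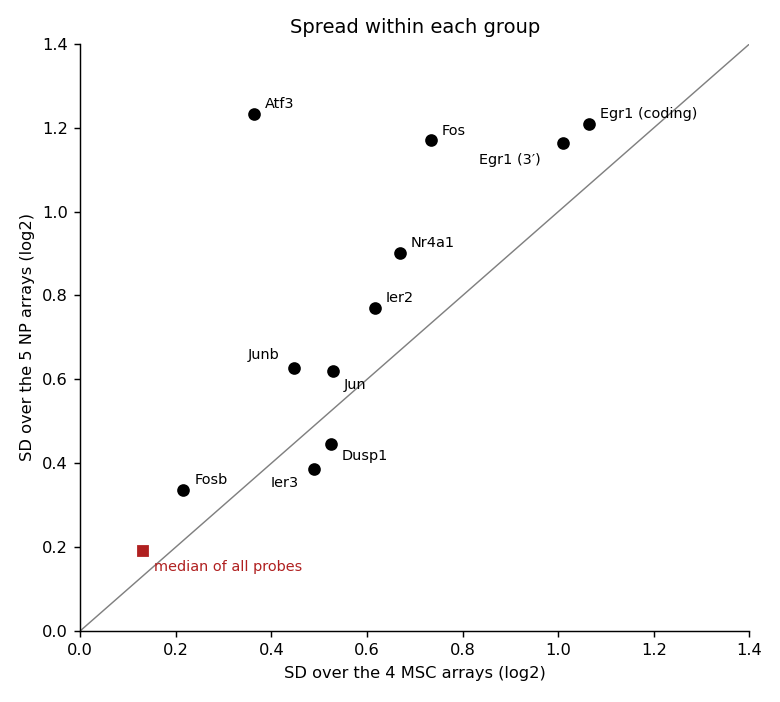
SD of log2 intensity over the 5 NP arrays (vertical axis) against that over the 4 MSC arrays (horizontal axis) for the 11 probes, with the line of equal SD and a red square at the median of all probes. Atf3 lies farthest from the line, at 1.23 against 0.36, and Ier3 and Dusp1 lie below it.

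Beyond the 10 genes, a list of 52 other immediate early genes was examined, of which 46 had a probe past the filter (52 probes). None passed an FDR under 0.05 in MSC against NP, with or without slide in the model, or between slides. In MSC against NP, 6 of the 52 probes were higher and 0 lower at an unadjusted p under 0.05, where 6.52% of all probes were higher and 5.16% lower, and the median difference was 0.10. Hbegf, a ligand of the EGF receptor, had the smallest p and was 1.1 higher in MSC (SE 0.32, limma FDR = 0.333). It read 10.41, 10.13, 9.51, 10.73 and 10.98 on the NP arrays and 11.29, 12.21, 10.93 and 11.38 on the MSC arrays, which overlapped at NP replicate 5 and MSC replicate 3. Unlike Fos, it had little difference between slides (0.19, SE 0.34). Gadd45g, a stress sensor, was 0.61 higher, Ier5 0.52 on 1 of its 2 probes and 0.31 on the other, which did not pass, Tiparp 0.54 and Klf2, a factor of endothelium under flow, 0.42. Between slides, 17 of the 52 probes (32.7%) were higher on slide 2 and 1 lower at p under 0.05, where 7.12% and 6.66% of all probes were, with a median of 0.23.

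Genes upstream and downstream of the 10 were given by 2 further lists. Of 34 probes for 24 kinases, coactivators and factors that act on these genes, 0 were higher and 2 lower in MSC at p under 0.05, a share near the 5.16% of all probes that were lower. Rps6ka1, which codes for a kinase below ERK, differed by -0.41 (SE 0.11, limma FDR = 0.333). Mapkapk2, a kinase below p38, differed by -0.24 (SE 0.09) on 1 probe and by -0.0043 (SE 0.12) on its other, which did not pass. Between slides 3 of these probes were higher and 8 lower on slide 2 at p under 0.05, where 7.12% and 6.66% of all probes were, with a median of -0.13. The lower probes read Crem, which had several of them, Egfr, Mapk14, Mapk8 and Rps6ka1, and the higher ones Mkl1 and Map2k6. These counts of probes are thus larger than the counts of genes. Of 15 probes for 12 known targets of AP-1 and EGR1, 3 were higher in MSC and 0 lower at an unadjusted p under 0.05, where 6.52% of all probes were higher and 5.16% lower, with a median difference of 0.08 and 0 past the FDR. They included Timp1, an inhibitor of matrix proteases (0.49, SE 0.18), and Plau, a plasminogen activator (0.51, SE 0.19), and 1 target probe was higher on slide 2.

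**Figure D4:**
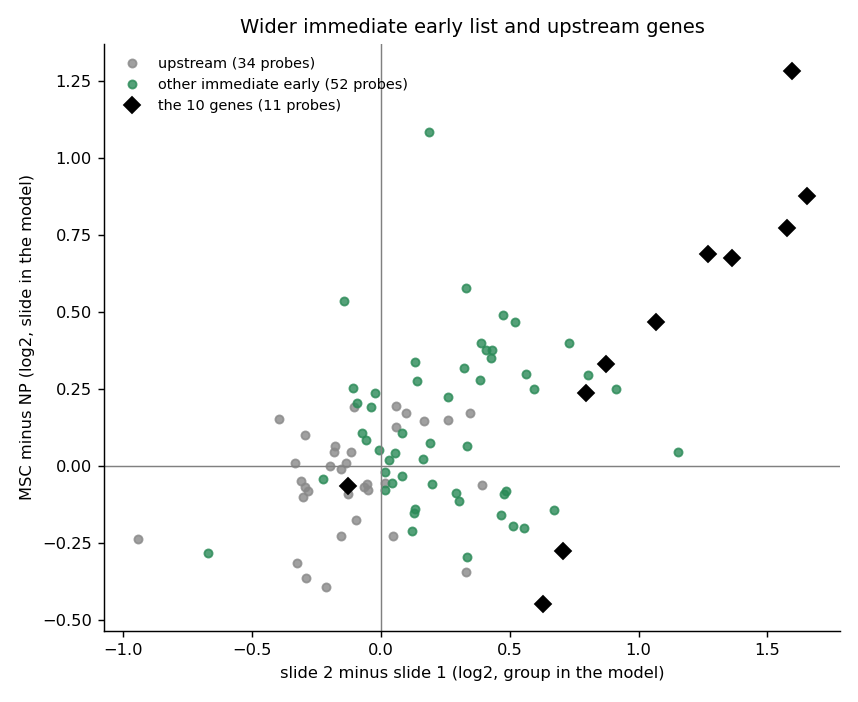
Log2 difference of MSC minus NP with slide in the model (vertical axis) against that of slide 2 minus slide 1 with group in the model (horizontal axis) for the 11 probes (diamonds), 52 probes of other immediate early genes (green) and 34 probes of upstream genes (grey). The median horizontal position is 1.07 for the diamonds, 0.23 for the green points and -0.13 for the grey ones.

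The genes whose pattern was most like the mean of the 11 probes were sought over the 9 arrays, after the group means were subtracted. The 10 highest Pearson's r, given as a description, were between 0.941 and 0.979, and these arrays share the slide split. The highest was that of Slc27a2, a fatty acid transport protein, with a difference between slides of 0.24. Larger differences between slides were found for Ankrd37 (1.15), Phlda2 (0.87) and Cyr61 (0.80), a matrix protein. Btg2, which restrains the cell cycle, had a difference of 0.56, and Cyr61 and Btg2 were also in the list of other immediate early genes. The remaining 5 were Disp1 (0.45), Trpv4 (0.36), Ppp1r26 (0.26), XM_212869 (0.22) and Arglu1 (0.21).

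Some markers of other cells were also higher on slide 2 at an unadjusted p under 0.05. Leukocyte markers (4 of 6 past the filter, with Cd3e not among them) summed to between 2846 and 4126 on slide 1 and between 3502 and 4527 on slide 2, and were lowest on NP replicate 3, the array on which most of the 11 probes were dimmest. Of their 4 probes 2 were higher on slide 2 at p under 0.05, Ptprc by 0.39 and Csf1r by 0.28, where 7.12% of all probes were. Markers of mesenchymal stromal cells (5 of 6 past the filter, without Thy1) summed to between 11686 and 29741 on NP and between 16334 and 26404 on MSC arrays. In MSC against NP, 2 of their 6 probes were higher and 0 lower at p under 0.05, where 6.52% and 5.16% of all probes were, and both read Col1a1 (0.70 and 1.06). With slide in the model Eng, which endothelium also expresses, passed as well. Between slides Eng was 0.70 higher on slide 2. Endothelial markers (3 of 4 past the filter, without Tek) summed to between 18782 and 32574 on slide 1 and between 25437 and 30337 on slide 2, and 1 of 3 probes, Kdr, was 0.43 higher on slide 2 at p under 0.05. Of the 11 kidney marker probes 4 were higher and 0 lower in MSC at p under 0.05, those of Slc12a3 (0.59 and 0.41), Slc12a1 (0.50) and Aqp1 (0.24). Their part in the results was not tested.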

How the data were processed

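The authors deposited, for each array, the spot intensity values of Agilent Feature Extraction 10.7.3.1 and a table of normalized log2 values of all 9 arrays. The mean pixel intensity was log2 transformed without background subtraction and normalized by cyclic loess in limma 3.58.1 (R 4.3.3). Control spots and flagged spots were left out and spots of a probe averaged. A probe was kept when, on at least 4 arrays, it exceeded on the log2 scale 1.1 times what 95% of negative controls stayed below. The deposited log2 values, which hold all 30367 gene probes, had a Pearson's r of 0.9999 or more with these. All 15630 probes were fitted with lmFit and eBayes, with Benjamini-Hochberg FDR. Spread was tested on absolute deviations from group means. Steps were tested on simulated data.

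The members, lists and tests were chosen with earlier results of these data known, and the comparison of slides was added after the values were seen. Genes were named from the lists by an unadjusted p under 0.05 in MSC against NP, at most 5 a list and direction, and 1 gene so chosen is not reported here. Gene names and probe positions (rn4) follow the array files. For 10 of 11 probes the accession was found in RefSeq under the same symbol. An MSC array that the authors discarded was not analysed here. The alternatives took other normalizations, intensity columns, filters, probe choices, variance models and blocks, single slides and the deposited table, and left out arrays. The number of arrays limits the precision.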

Additional observations from a re-analysis of the deposited data

Results flagged for a closer look

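Of 22 sets of values, 1 for each of the 11 probes in each group, 0 held an array whose gap to its neighbour passed Dixon's 95% limit.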

How the results depend on the processing

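No probe of the 10 genes was called in MSC against NP under any of the alternatives that kept the FDR, including each array left out (0 to 0 probes), and an unadjusted p with a fold change over 1.5 gave 1 probe, that of Fos, and 177 of all 15630 probes. The difference of Fos stayed positive, from 0.70 with array weights to 1.81 without NP replicate 4, and was 0.71 without NP replicates 2 and 3. Some directions turned: Dusp1 was -0.011 with array weights, Atf3 -0.10 on slide 2 alone, and without NP replicates 2 and 3 Fosb was 0.10, Junb -0.0027 and Atf3 -0.028. Leaving out NP replicate 3 alone moved Atf3 to 0.43, Ier2 to 0.32, Junb to 0.24, Dusp1 to 0.20 and the Egr1 probes to 0.65 and 0.61. Without NP replicate 1 Jun was -0.65, without NP replicate 4 -0.25 and without MSC replicate 1 -0.17. Dusp1 was 0.54 without MSC replicate 1, 0.17 without MSC replicate 3 and 0.18 without MSC replicate 4, which also took Junb to 0.27. With array weights Junb was 0.030, Jun -0.66 and Ier3 -0.53. Leaving out single arrays gave -0.18 to 0.050 for Fosb and -0.35 to 0.012 for Ier3. For spread, 0 to 1 probes were called when single arrays were left out, with 0 to 22 of all probes, and 0 with slide as a block, where 75 of all probes were called. With slide as a block most sets held 2 arrays, whose distances from their mean are equal by construction, so that fit cannot decide on spread. Between slides, 0 probes instead of 1 were called under quantile normalization, 75th percentile scaling, median scaling, the processed signal, normexp, no filter, a filter on spots well above background, the methods' filter read literally, and trend and robust variances. The filter read literally removed no gene probe, so it repeats the fit without a filter. Array weights gave 9, with 270 of all 15630 probes called, and leaving out single arrays 0 to 7, with 117 of all probes at 7, against 14 of all probes in the fit reported. The cause was not tested. Deviations of arrays with the same replicate number had correlations of 0.20, 0.32, -0.35 and 0.05. Arrays with different numbers were not compared, so these values cannot decide whether the numbers pair the kidneys. With the replicate block 0 probes were called.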
